A study of Homo sapiens with 4 samples.

Results

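MYC is a transcription factor, and the other genes described here encode proteins that make ribosomes in the nucleolus. The 38 genes were fixed by symbol, and each was read by the probe set with the highest mean over the 4 arrays among those annotated with that symbol alone. This gave values for 35 of the 38, within 18417 genes named on the arrays. NOP56 was read only by a probe set that also carries a small nucleolar RNA symbol, and GNL3 and DDX18 had no named probe set here, so these 3 are not analysed. All 35 passed the filter on low values described below, as did 9209 genes in all, which are called kept genes.

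The study measured total RNA of human prostate cancer cell lines on Affymetrix whole-transcript arrays, with 1 array for each of 4 groups. The groups were LTAD cells transfected with an siRNA against PSF (siPSF), LTAD cells transfected with a control siRNA (siControl), LTAD cells without transfection, and parental LNCaP cells. LNCaP is an androgen-responsive line, and LTAD is a line derived from it by long-term androgen deprivation. LTAD was grown in medium with 10% charcoal-stripped serum, and LNCaP spent 24 h in medium with 2.5% stripped serum, so line and culture cannot be told apart. PSF, an RNA-binding protein encoded by SFPQ, is the siRNA target. No group had a replicate. Every difference below is therefore between 2 single arrays, with no error and no p-value, and precision is limited by how few arrays there are.

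Ribosome production starts with RNA polymerase I, which transcribes the long precursor of ribosomal RNA. Small nucleolar ribonucleoproteins (snoRNPs) then modify that precursor, box C/D particles by methylation and box H/ACA particles by pseudouridylation, and a large set of assembly factors folds, cuts and exports the small and the large subunit. MYC, as a dimer with MAX, binds E-box DNA and is known to drive many genes at each of these steps. Growing and dividing cells, prostate cancer cells among them, keep this pathway active.

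Values are log2 levels after quantile normalization of the 4 arrays, which gives them the same distribution. The deposited columns had different medians over the 33297 probe sets, 6.04 for siPSF, 5.98 for siControl, 7.20 for untransfected LTAD and 6.91 for LNCaP. A kept gene had a mean over the 4 arrays at or above the median of all gene means, 7.23. No detection call was given in the sources used here. The siRNA target SFPQ read 9.87 with siPSF against 11.23 with siControl, and 10.82 in untransfected LTAD against 10.83 in LNCaP. The siControl and untransfected LTAD arrays were of the same line but differed by transfection. They were at least 2-fold apart in 524 kept genes that were higher and 300 that were lower with siControl. Between siPSF and siControl these counts were 5 and 53, and between untransfected LTAD and LNCaP 136 and 259. All 9 luminal prostate markers named on the arrays passed the filter. For siControl against untransfected LTAD their median difference was -0.65, and 5 of the 9 were at least 1.5-fold lower (KRT8 at -0.65, KRT18 at -0.79, ACP3 at -0.89, KLK2 at -0.90 and KLK3 at -3.59), against 10.5% of kept genes. EPCAM was higher by 0.90. The luminal median was -0.06 for siPSF against siControl and 0.13 for untransfected LTAD against LNCaP. The part of these markers in the results below was not tested. KLK3, the gene of prostate-specific antigen, read 7.11 with siPSF, 7.47 with siControl, 11.06 in untransfected LTAD and 12.89 in LNCaP, so its level in both transfected arrays was near the filter value. Of markers of other cells, 1 of 5 basal and 2 of 15 stromal, endothelial or immune genes passed the filter. The bulk arrays cannot tell fewer cells with a transcript from less transcript in each cell.

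Promoter sequence was not used to choose the members. RefSeq promoter sequences (GRCh38.p14), from 250 bases before to 50 bases after the first listed start of each gene, were matched for 31 of the 38 members. MYC, NOP58, NOLC1, RRP12, RRP1B, BOP1 and DDX18 were not matched. The palindrome CACGTG, the canonical E-box, which reads the same on both strands, was present in 10 of the 31 (32.3%). In the same window it was present for 11.1% of 7587 kept genes and for 7.43% of 27305 genes in the table. With every listed start of a gene counted, the shares were 45.2% for members and 13.6% for kept genes. The 10 members were FBL, RRP9, NOP14, UTP20, WDR43, BYSL, PES1, NOP2, GNL2 and MRTO4. Each held a single copy, beginning between position -10 and position 36, where 1 is the first base of the gene. Among the 843 kept genes with the motif, 41.9% had a copy inside the 100 bases centred on the start. For comparison, CCGGAAG, an ETS factor core searched on both strands, was in 35.5% of member promoters and 21.4% of those of kept genes. CCAAT was in 35.5% and 38.2%, and TATAAA in 3.23% and 4.96%. The median GC content was 63.7% for members and 66% for kept genes. A match describes these letters and is not a site of binding.

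The matches are shown with the bases around them for 6 members, 4 whose quantile-normalized level was higher with siControl than in untransfected LTAD (FBL, RRP9, WDR43 and PES1) and 2 whose level was lower (BYSL and GNL2). Each line runs 5′ to 3′ along the gene, from 50 bases before the start to 50 bases after it, with CACGTG in capitals. The FBL window is chr19:39846330-39846429 (minus strand), and that of RRP9 is chr3:51941855-51941954 (minus strand). WDR43 lies at chr2:28894617-28894716 (plus strand) and PES1 at chr22:30591861-30591960 (minus strand). BYSL lies at chr6:41921449-41921548 (plus strand) and GNL2 at chr1:37595888-37595987 (minus strand).
FBL: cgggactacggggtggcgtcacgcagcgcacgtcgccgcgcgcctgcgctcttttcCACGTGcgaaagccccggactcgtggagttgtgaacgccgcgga
RRP9: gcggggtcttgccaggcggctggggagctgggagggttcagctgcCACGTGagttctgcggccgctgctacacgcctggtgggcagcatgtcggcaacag
WDR43: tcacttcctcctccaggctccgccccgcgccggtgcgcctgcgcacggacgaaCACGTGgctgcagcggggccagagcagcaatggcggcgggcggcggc
PES1: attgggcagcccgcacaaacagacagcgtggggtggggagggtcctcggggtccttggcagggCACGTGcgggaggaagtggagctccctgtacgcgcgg
BYSL: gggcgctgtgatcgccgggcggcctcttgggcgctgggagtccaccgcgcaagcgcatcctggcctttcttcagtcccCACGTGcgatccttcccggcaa
GNL2: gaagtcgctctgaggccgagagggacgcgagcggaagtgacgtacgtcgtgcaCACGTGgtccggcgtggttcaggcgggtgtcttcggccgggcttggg
The motif therefore stood close to the start in members that differed in opposite directions between these arrays after quantile normalization. On the deposited values each of the genes shown was lower with siControl than in untransfected LTAD, as were 93.2% of kept genes. Of measured members, the 10 with the motif had a median log2 difference of -0.14 between siPSF and siControl, and the 19 without it had -0.23. Between untransfected LTAD and LNCaP the medians were -0.21 with the motif and -0.36 without it. Between siControl and untransfected LTAD they were 0.47 and 0.49.

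The members differed in which array read lowest and highest. Untransfected LTAD held the lowest reading for 24 of 35 members, where it was lowest for 33.7% of kept genes. The siControl array held the highest reading for 23 of 35, against 25.6% of kept genes, and the lowest for none of the 35, against 17.7% of kept genes. In 19 members siControl was highest and untransfected LTAD lowest, an order found in 15.1% of kept genes. The siPSF array was lowest for 10 members, DDX10, UTP20, HEATR1, BYSL, GNL2, GRWD1, NIP7, MRTO4, POLR1C and NPM1, against 22.7% of kept genes. Some placements were near ties. The siPSF level differed from untransfected LTAD by -4e-05 for UTP20 and -0.0009 for HEATR1. NHP2, counted as lowest in untransfected LTAD, differed there from LNCaP by -0.0008. For the 3 members with several probe sets, the order also changed with the probe set. The second probe sets of NHP2 and BOP1 read lowest with siPSF, at 9.40 and 8.49. The other NPM1 probe sets above the filter value read lowest in untransfected LTAD (11.74 and 11.93) and highest with siControl (12.05 and 12.11). With the mean over all probe sets of a gene, the counts stayed at 24 and 23. LNCaP was highest for 8 members, FBL, NOP14, HEATR1, BYSL, WDR74, GNL2, GRWD1 and NPM1, against 20.8% of kept genes, and lowest for RRP12 alone, against 25.9%. The siPSF array was highest for GAR1 and WDR43 (24.6% of kept genes), and untransfected LTAD for POLR1C and MRTO4 (29% of kept genes). The distance from the lowest to the highest array was between 0.20 (HEATR1) and 1.16 (DDX21), with a median of 0.61 for members and 0.52 for kept genes. These counts depended on putting the arrays on a common scale. On the deposited values, where the whole untransfected LTAD array read higher, it was lowest for 2 members and for 3.67% of kept genes, and with each array centred on its median it was again lowest for 24.

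**Figure D1:**
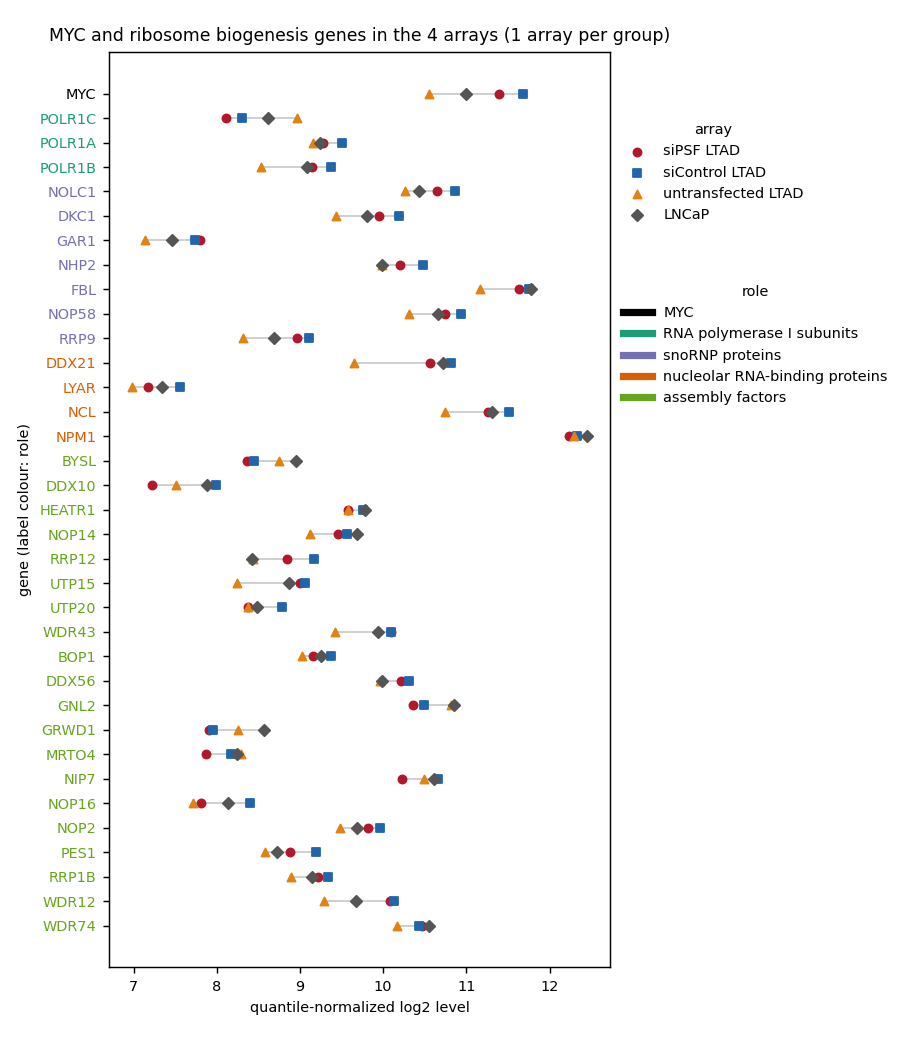
Quantile-normalized log2 level of each of the 35 measured genes (rows, label colour by role) in the siPSF, siControl, untransfected LTAD and LNCaP arrays (1 marker per array, grey line from lowest to highest). Untransfected LTAD is lowest in 24 rows and siControl highest in 23. Levels of different genes come from different probe sets and are not compared.

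The comparison of siPSF with siControl asked what loss of PSF does to expression in LTAD cells. Nearly all members were slightly lower with siPSF. The difference was below 0 in 32 of 35 members, where it was below 0 in 52.8% of kept genes. The members' median was -0.20, against -0.01 over kept genes. Only DDX10 was at least 1.5-fold lower, 1 of 35 members, against 2.81% of kept genes, and no member was at least 1.5-fold higher, against 0.695% of kept genes. Both shares past 1.5-fold were near those of kept genes.

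MYC read 11.39 with siPSF, 11.68 with siControl, 10.55 in untransfected LTAD and 10.99 in LNCaP. On this scale both transfected arrays were above both untransfected ones. The deposited MYC values were 11.07 with siPSF, 11.36 with siControl, 11.00 in untransfected LTAD and 11.27 in LNCaP. There siPSF lay below LNCaP. MYC was 1.22-fold lower with siPSF than with siControl (log2 difference -0.29), and 1144 of 9209 kept genes were placed as low or lower. Against untransfected LTAD the quantile-normalized siPSF level was 1.79-fold higher.

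Among the snoRNP proteins, 6 of 7 were below 0, with a median of -0.20. Of the box C/D core, NOP58 read 10.74 with siPSF and 10.94 with siControl. FBL (fibrillarin, the methyltransferase) read 11.64 with siPSF and 11.76 with siControl. Of the box H/ACA core, DKC1 (dyskerin, the pseudouridine synthase) read 9.95 with siPSF and 10.20 with siControl, and NHP2 differed by -0.27. GAR1, the third member from that core, was the exception at 7.80 with siPSF against 7.74 with siControl. NOP10, also of that core but not a member, differed by -0.19. RRP9, a protein of the snoRNP that guides early cleavage of the precursor, differed by -0.14, and NOLC1, a chaperone that binds both kinds of particle, by -0.21.

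The RNA polymerase I subunits lay within a narrow range. POLR1A, the largest subunit, and POLR1B, its catalytic partner, each differed by -0.23 between siPSF and siControl. POLR1C, which RNA polymerase III also uses, differed by -0.20.

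Assembly factors spread further, with a median of -0.14 over 20 genes and 18 below 0. DDX10, a helicase of the small-subunit pathway, read 7.22 with siPSF, 7.98 with siControl, 7.51 in untransfected LTAD and 7.88 in LNCaP. It was the lowest of all members at -0.77, 1.70-fold lower, and its siPSF level lay just under the filter value. NOP16, a factor of the large subunit, read 7.81 with siPSF and 8.40 with siControl, and its difference of -0.58 stopped just short of 1.5-fold. NIP7, which takes part in precursor processing, read 10.22 with siPSF and 10.66 with siControl. UTP20, a component of the small-subunit processome, differed by -0.41. At the other end, WDR43 differed by 0.01, WDR74 by 0.03 and GRWD1 by -0.04. The small-subunit and large-subunit factors had medians of -0.15 and -0.14.

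The nucleolar RNA-binding proteins were all below 0. LYAR, which acts in precursor processing, differed by -0.38, and its level of 7.18 with siPSF lay under the filter value. DDX21, a helicase that binds ribosomal and small nucleolar RNA, and NCL, nucleolin, each differed by -0.25, and NPM1, nucleophosmin, by -0.10. NPM1 has processed pseudogenes, so its readings are uncertain. The other NPM1 probe sets above the filter value differed by -0.12 and -0.11, and the second probe sets of NHP2 and BOP1 by -0.32 and -0.30. A further NPM1 probe set, at 4.70 with siPSF and 4.90 with siControl, lay below the filter value and is not used.

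After quantile normalization, the array of untransfected LTAD gave the opposite sign. With untransfected LTAD in place of siControl, the members' median for siPSF was 0.30, and 10 of 35 members were below 0, against 46% of kept genes, and 8 at least 1.5-fold higher, against 14.7%. Both comparisons use the same siPSF array. On the deposited values, where the whole untransfected LTAD array read higher, siPSF was below it for every measured member but MYC and DDX21. Against LNCaP, siPSF had a members' median of -0.05, with 18 of 35 below 0, against 46.7% of kept genes.

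**Figure D2:**
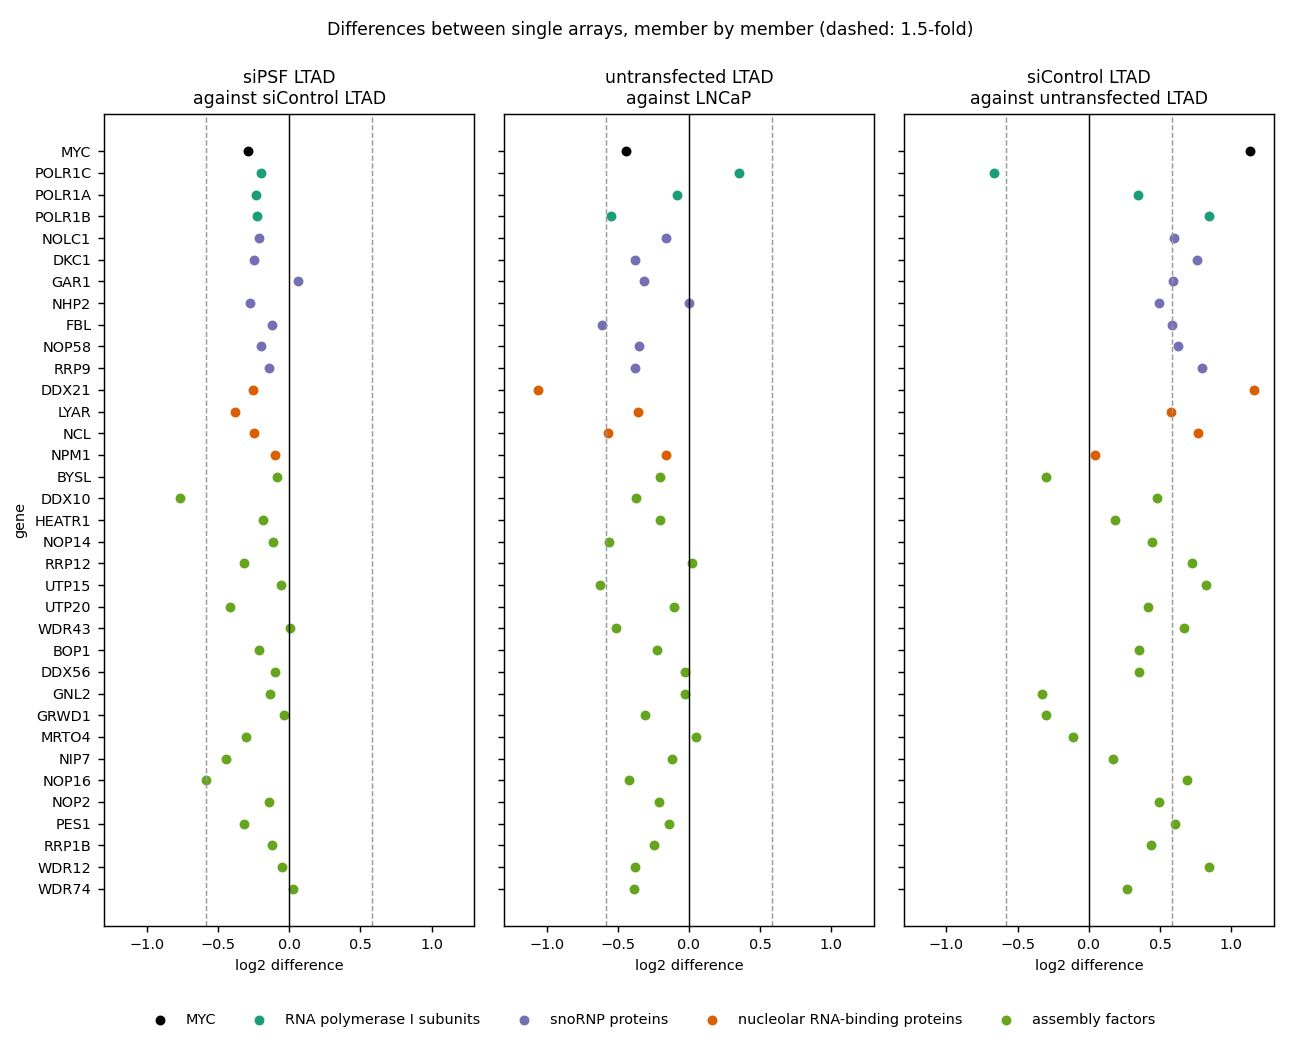
Log2 difference of each of the 35 genes (rows, coloured by role) in 3 panels, siPSF against siControl, then untransfected LTAD against LNCaP, then siControl against untransfected LTAD, after quantile normalization; the solid line is 0 and the dashed lines are 1.5-fold. In the panels from left to right, 32, 32 and 5 genes lie below 0; on the deposited values the counts are 33, 25 and 32, where 56.4%, 29.3% and 93.2% of kept genes lie below 0.

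The comparison of untransfected LTAD with LNCaP addressed how the androgen-deprived line differs from its parent. Again 32 of 35 members were below 0, against 49.8% of kept genes, with a median of -0.31 for members and 0.00 for kept genes. Of the members, 3 were at least 1.5-fold lower, against 8.32% of kept genes, and none at least 1.5-fold higher, against 5.73%. The exceptions, above 0, were POLR1C, MRTO4 and RRP12 here, and GAR1, WDR43 and WDR74 for siPSF against siControl.

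DDX21 was furthest apart and the only member at 2-fold. It read 9.65 in untransfected LTAD and 10.71 in LNCaP, 2.09-fold lower, where 2.81% of kept genes were at least 2-fold lower, while the transfected arrays read 10.56 (siPSF) and 10.81 (siControl). After quantile normalization the untransfected LTAD array thus stood alone for this gene. UTP15, a processome protein that also supports precursor transcription, read 8.24 in untransfected LTAD and 8.86 in LNCaP. FBL read 11.17 in untransfected LTAD and 11.78 in LNCaP, and was 1.53-fold lower. NCL differed by -0.57, NOP14 by -0.56, POLR1B by -0.55 and WDR43 by -0.51, all short of 1.5-fold.

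MYC read 10.55 in untransfected LTAD and 10.99 in LNCaP, 1.36-fold lower. The snoRNP proteins had a median of -0.35, with 7 of 7 below 0, although NHP2 read 9.98 in untransfected LTAD against 9.99 in LNCaP. The nucleolar RNA-binding proteins had a median of -0.47. Assembly factors had a median of -0.22, with RRP12, an export factor, at 0.02, DDX56, a helicase of the large subunit, at -0.03 and GNL2, a nucleolar GTPase, at -0.03. POLR1C was higher, at 8.97 in untransfected LTAD and 8.62 in LNCaP, while the other RNA polymerase I members differed by -0.08 (POLR1A) and -0.55 (POLR1B). Of 16 further RNA polymerase I subunits and factors, 10 were below 0, against 49.8% of kept genes. POLR1D, 1 of those above 0, differed by 0.15.

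After quantile normalization this difference, too, depended on the array that stood for LTAD. With siControl LTAD against LNCaP the members' median was 0.20 and 10 of 35 were below 0, against 43.8% of kept genes. Both comparisons use the same LNCaP array. On the deposited values, where the whole LNCaP array read higher than siControl, siControl was below it for every measured member but MYC. RRP12, at 0.75, and MYC, at 0.69, were then the members at least 1.5-fold higher, against 9.15% of kept genes. GRWD1, a chaperone of ribosomal proteins and histones, was the member at least 1.5-fold lower, at -0.61, against 7.18%. The snoRNP proteins had a median of 0.38, the RNA polymerase I subunits 0.26, and assembly factors 0.14.

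Between siControl and untransfected LTAD the line was the same and transfection differed. With 1 array each, an effect of transfection cannot be told apart from other differences between the 2 arrays. Both transfected arrays also had lower deposited medians (6.04 for siPSF, 5.98 for siControl) than untransfected LTAD (7.20) and LNCaP (6.91). The members were higher with siControl, with a median of 0.49 against 0.06 over kept genes; without that normalization the members' median was -0.45 and that of kept genes -0.86. After quantile normalization 30 of 35 members were above 0, against 55.3% of kept genes. Of the members, 16 were at least 1.5-fold higher, against 15.8% of kept genes, and 2 at least 2-fold higher, against 5.69%. The members' median was larger in size here than in either of the other comparisons, but kept genes also spread more widely here. Among kept genes the members' median lay near the 80th percentile here. It lay near the 20th percentile for siPSF against siControl and near the 19th for untransfected LTAD against LNCaP.

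DDX21 read 10.81 with siControl and 9.65 in untransfected LTAD, 2.24-fold higher. MYC read 11.68 with siControl and 10.55 in untransfected LTAD, 2.19-fold higher, and ranked 368 of 9209 kept genes from the highest. WDR12 read 10.13 with siControl and 9.29 in untransfected LTAD. It acts with PES1 and BOP1 in the PeBoW complex of large-subunit maturation, and these differed by 0.61 and 0.35. The second BOP1 probe set differed by 0.18. POLR1B read 9.37 with siControl and 8.53 in untransfected LTAD, and POLR1A differed by 0.34. UTP15 differed by 0.82, RRP9 by 0.79, NCL by 0.77, DKC1 by 0.76 and RRP12 by 0.73.

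The snoRNP proteins were the most even group, at 0.49 (NHP2) to 0.79 (RRP9), with 6 of 7 at least 1.5-fold higher, against 15.8% of kept genes. Of these, FBL, GAR1 and NOLC1, each at 0.59, lay just past the threshold of 0.585. The untransfected LTAD level of GAR1, 7.14, lay under the filter value. The second NHP2 probe set differed by 0.17, so the size for that gene depends on the probe set. Assembly factors ran from -0.33 to 0.85, with 6 of 20 at least 1.5-fold higher, against the same 15.8%. Among them NOP16 differed by 0.69, NOP2, a methyltransferase of large-subunit ribosomal RNA, by 0.49, RRP1B by 0.44, NOP14 by 0.44, HEATR1 by 0.18 and NIP7 by 0.17. NPM1 read 12.33 with siControl and 12.29 in untransfected LTAD, and its other probe sets above the filter value differed by 0.18 and 0.31.

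A small set ran against the rest, with 5 of 35 members below 0, against 44.7% of kept genes. POLR1C read 8.31 with siControl and 8.97 in untransfected LTAD, 1.59-fold lower, the one member at least 1.5-fold lower, against 10.5% of kept genes. GNL2 read 10.49 with siControl and 10.82 in untransfected LTAD. BYSL, bystin, which acts late in small-subunit maturation, read 8.45 with siControl and 8.75 in untransfected LTAD. GRWD1 read 7.95 with siControl and 8.25 in untransfected LTAD, and MRTO4, which prepares the site of the ribosomal stalk, differed by -0.11. After quantile normalization both transfected arrays lay below both untransfected ones for all 5 of these genes, and for no other member. On the deposited values other members, NOP58 and FBL among them, had this order too.

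**Figure D3:**
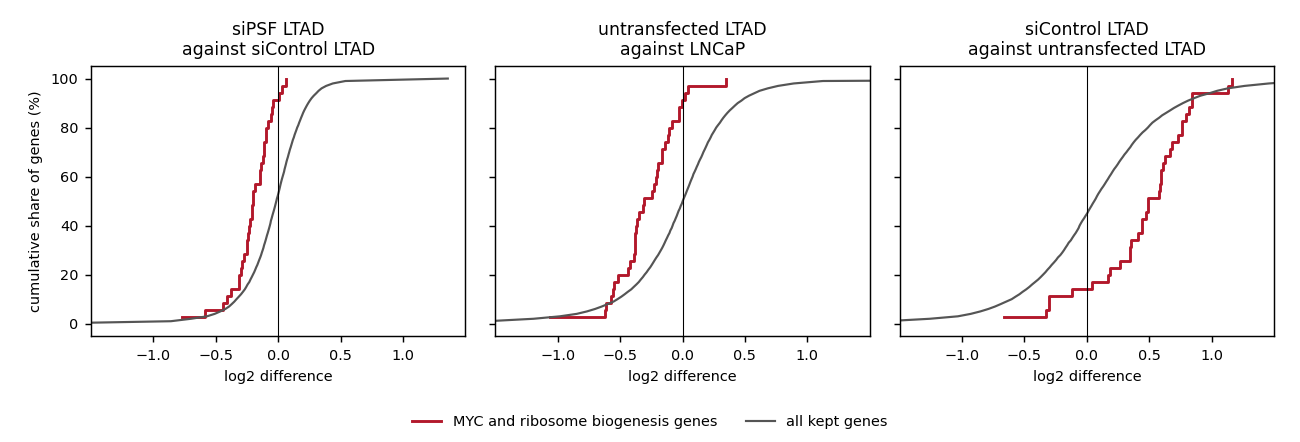
Cumulative share of genes (percent) by log2 difference after quantile normalization, for the 35 measured genes (red steps) and all 9209 kept genes (grey), in the same 3 comparisons. Over most of the range the members lie left of kept genes in the first 2 panels (medians -0.20 and -0.31) and right of them in the third (median 0.49; without quantile normalization -0.45, with kept genes at -0.86).

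The rest of the pathway was read from lists that do not hold the members. Of 46 further small-subunit factors, 36 were below 0 for siPSF against siControl (median -0.18), 36 for untransfected LTAD against LNCaP (median -0.21), and 11 for siControl against untransfected LTAD (median 0.29). Of 41 further large-subunit factors the counts were 33, 30 and 6, with medians of -0.14, -0.10 and 0.30. Of 13 further snoRNP proteins and their assembly factors they were 10, 11 and 3, with medians of -0.18, -0.16 and 0.50. Of kept genes, 52.8%, 49.8% and 44.7% were below 0 in the same order. The medians of these lists thus had the signs of the members' medians, as did those for RNA polymerase III and the exosome given below.

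RRS1, a factor of the large subunit, was furthest apart in these lists, at 10.19 with siPSF, 10.32 with siControl, 8.19 in untransfected LTAD and 9.08 in LNCaP. NOL11, a processome protein, read 9.41 with siControl and 8.05 in untransfected LTAD, and NUFIP1, which helps to assemble box C/D particles, differed by 1.46. TCOF1, treacle, which supports RNA polymerase I transcription, read 8.44 with siPSF, 8.44 with siControl, 7.31 in untransfected LTAD and 7.94 in LNCaP. Other genes ran against the members. NVL, an ATPase of large-subunit maturation, read 8.30 with siControl and 9.65 in untransfected LTAD. NOP10, the smallest protein of the box H/ACA core, read 10.38 with siControl and 11.27 in untransfected LTAD. At least 1.5-fold lower with siPSF than with siControl were AFG2A at -0.71, MAK16 at -0.62 and RRP15 at -0.60, all of the large-subunit list.

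MYC targets outside ribosome biogenesis gave medians of -0.19, -0.41 and 0.69 over 18 kept genes in the comparisons in the same order. TFRC, the transferrin receptor, was 1 of them at -0.80 between siPSF and siControl. CDC25A, a phosphatase of the cell cycle, read 6.35 in untransfected LTAD and 7.78 in LNCaP, and its untransfected LTAD level lay under the filter value. The cytosolic ribosomal proteins, which the assembly factors build into ribosomes, did not stand with the members. Over 57 kept genes their medians were 0.04, -0.01 and 0.00, and 21, 31 and 28 were below 0, against 52.8%, 49.8% and 44.7% of all kept genes. Among partners, antagonists and regulators of MYC the medians over 16 genes were -0.04, 0.05 and 0.02. MAX, the dimer partner, read 8.55 with siPSF, 8.66 with siControl, 9.29 in untransfected LTAD and 8.98 in LNCaP. Both transfected arrays were below both untransfected ones for MAX, where for MYC they were above after quantile normalization. MXD4, an antagonist that competes for MAX, differed by -1.04 between siControl and untransfected LTAD. CIP2A, which stabilizes MYC protein, and SKP2, a ubiquitin ligase subunit that acts on MYC, went the way of the members, at 1.80 and 1.44. The untransfected LTAD level of CIP2A, 6.90, lay under the filter value. MYCN and MYCL did not pass the filter.

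In these 3 comparisons the medians of cell-cycle genes had the signs of the members' medians, and their part in these results was not tested. Of 31 DNA replication genes, 28 were below 0 for siPSF against siControl, 30 in the comparison of untransfected LTAD with LNCaP and 1 in that of siControl with untransfected LTAD, with medians of -0.28, -1.26 and 1.09. Of 26 genes of G2/M and mitosis the counts were 23, 26 and 0, with medians of -0.15, -1.16 and 1.29. The shares of kept genes below 0 were 52.8%, 49.8% and 44.7%. For siControl against LNCaP, where the members' median was 0.20, the median was -0.18 for DNA replication genes, 19 of 31 of them below 0, and 0.12 for mitotic genes, 9 of 26 below 0. In that comparison 43.8% of kept genes were below 0. Untransfected LTAD was the lowest array for 27 of the 31 and 26 of the 26, against 33.7% of kept genes. CDC6, which loads the replicative helicase, read 9.19 with siPSF, 9.79 with siControl, 7.22 in untransfected LTAD and 9.17 in LNCaP. KIF11, a mitotic motor, read 8.20 with siPSF, 8.90 with siControl, 7.17 in untransfected LTAD and 9.04 in LNCaP. The untransfected LTAD levels of CDC6 and KIF11 lay just under the filter value.

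**Figure D4:**
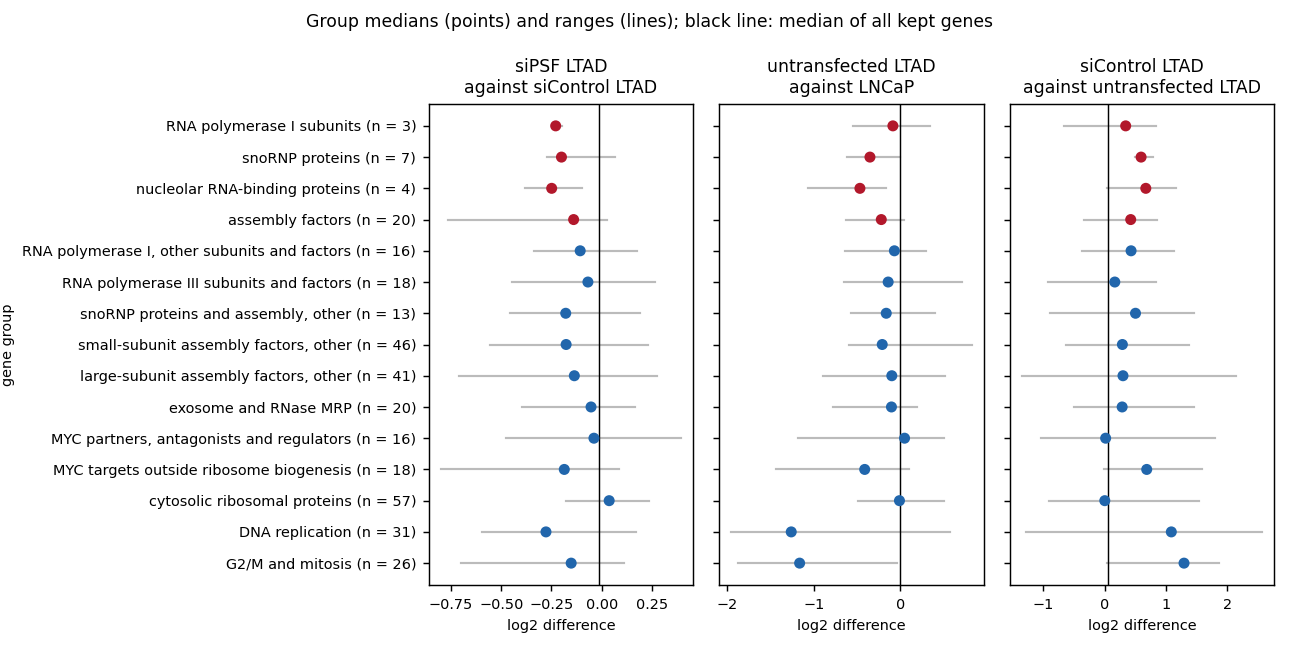
Median log2 difference after quantile normalization (points) and range (lines) of each gene group, members in red and other lists in blue, with the number of kept genes in brackets; the black line is the median of all kept genes (-0.01, 0.00 and 0.06). Ribosomal proteins lie at 0.04, -0.01 and 0.00, and the 4 member groups lie left of the line in the first 2 panels and right of it in the third, where on the deposited values the members' median is -0.45.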

How the data were processed

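Total RNA of 4 cell samples was labelled with biotin and read on whole-transcript arrays, 1 array per group. The authors deposited log2 probe set levels that, per the submitters' processing notes, came from RMA (Affymetrix Expression Console). Tool versions and the set of arrays in that normalization are not given in the sources used here. Column medians differed, so the deposited log2 values were quantile-normalized over all 33297 probe sets (Python 3.11.15, numpy 2.4.6, pandas 2.3.3). This removes any shift that all genes share, real or technical.

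Of the probe sets, 19460 had 1 gene symbol, 1754 had several and 12083 were unnamed here. Symbols were updated by Entrez ID to RefSeq GRCh38.p14, which matched 19429, and only those with 1 symbol named a gene. Where a gene had more than 1 probe set (769 genes), the brightest on average stood for it. Genes were kept from the 50th percentile of the means upward. With 1 array per group no test was possible; differences, medians and counts past 1.5-fold are given beside those of all kept genes. The computation was tested on simulated data.

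The members, the 14 lists (392 entries, 352 named, 314 kept) and their order by role were chosen with earlier results of these data known. Named in full were MYC, SFPQ, the 3 members furthest apart and the 3 closest in each comparison, examples from each role, and from the lists examples among up to 3 genes at 1.5-fold in each direction. Further members and list genes were named after their values were seen. Alternatives changed the scale, the probe set rule, the filter and the LTAD array.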

Additional observations from a re-analysis of the deposited data

How the results depend on the processing

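Of 74 alternative values for 14 results, 54 stayed near the reported value. For medians this meant the same sign and a distance within 0.1, and for counts a ratio within 1.5 times. Removing the filter on low values could not move any result, because all 35 members had passed it. Averaging over all probe sets could move little, because only 3 members had several. The 54 include the values from both of these alternatives. No paired analysis was possible because each group had 1 array and the labels give no replicate numbers; for the same reason no array could be left out within a group. After quantile normalization the LTAD array decided the sign. With untransfected LTAD in place of siControl, the siPSF median turned to 0.297, with 10 members below 0 and 8 at least 1.5-fold higher. With siControl in place of untransfected LTAD, the median against LNCaP turned to 0.197, with 10 below 0, 1 at least 1.5-fold lower and 2 higher. These swaps did not turn the sign on the deposited values, where both transfected arrays read lower as a whole. There siPSF was below untransfected LTAD for every measured member but MYC and DDX21, and siControl was below LNCaP for every one but MYC. On the deposited values, whose medians over kept genes differed by -0.03, 0.18 and -0.86 in the order of the comparisons, siPSF against siControl had 2 members at least 1.5-fold lower, and untransfected LTAD against LNCaP had a median of -0.083 with 1 such member. SiControl against untransfected LTAD then had a median of -0.451, with 32 members below 0 (93.2% of kept genes), 7 at least 1.5-fold lower and 0 higher, untransfected LTAD was lowest for 2 members (3.67% of kept genes) and siControl highest for 1 (2.15%). With arrays centred on kept genes the medians were -0.168, -0.240 and 0.412. The 75th percentile filter left 23 members, which by itself lowers counts: 21 were below 0 for siPSF against siControl with 0 at least 1.5-fold lower, and 1 was below 0 for siControl against untransfected LTAD with 0 at least 1.5-fold lower. The alternatives on the order of the arrays were chosen after seeing the data. Without detection calls, readings near or under 7.23 are not shown to be above background. Among members these were of LYAR, GAR1 and DDX10. The untransfected LTAD readings of CDC25A, CDC6, KIF11, CIP2A (6.90) and TCOF1 (7.31) have the same limit, as does that of AFG2A with siPSF (7.28).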

Other observations

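RNA polymerase III makes transfer RNAs and the shortest ribosomal RNA, and the exosome and RNase MRP trim the ribosomal RNA precursor. Both lists stood closer to kept genes than the members did. Over 18 kept genes of RNA polymerase III and its factors the medians were -0.07 for siPSF against siControl, -0.14 in the comparison of untransfected LTAD with LNCaP and 0.17 in that of siControl with untransfected LTAD. BDP1, an initiation factor, differed by 0.72 between untransfected LTAD and LNCaP, and GTF3A, which binds the gene of the shortest ribosomal RNA, by -0.60. Over 20 exosome and RNase MRP genes the medians were -0.05, -0.10 and 0.29. EXOSC8, an exosome ring subunit, read 9.40 with siPSF, 9.47 with siControl, 8.02 in untransfected LTAD and 8.80 in LNCaP. Over 16 further RNA polymerase I subunits and factors the medians were -0.11, -0.07 and 0.43, with UBTF, which binds the ribosomal RNA gene, at 0.18 and RRN3, the initiation factor, at -0.20 between siPSF and siControl.

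Among ribosomal proteins, single genes differed far more than their medians of 0.04, -0.01 and 0.00. RPS23 read 12.01 with siPSF, 12.08 with siControl, 10.53 in untransfected LTAD and 11.02 in LNCaP, and RPL27A read 11.41 with siPSF, 11.17 with siControl, 12.07 in untransfected LTAD and 12.31 in LNCaP. Ribosomal protein genes have many processed pseudogenes, and whether these probe sets read them was not tested.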
